A study of Glycine max with 8 samples.

Results

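Beans of 5 mm length were compared with pods at the start of their elongation in soybean, Glycine max, cultivar Tamahomare. The comparison used 4 of the 8 Affymetrix soybean arrays of the series, the 2 titled Bean5mm and the 2 titled Podelongation. Arrays were assigned to a stage by title. This pair of stages was chosen for its like hybridization controls and its like ratio on 1 of the actin controls, described below. By the labels the bean 5 mm samples were seeds and the pod elongation samples were pods of the same cultivar, and no treatment or genotype set them apart. The remaining 4 arrays, 2 of beans of 2 mm with their pods and 2 of green, fully grown beans, entered the fit so that all stages shared 1 estimate of the spread. The design text asks which transcripts change as seeds develop.

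The organ and the stage changed together between these samples and cannot be told apart. Whether the 2 samples of a stage came from different plants is not stated in the labels, and the p-values then measure only how far these samples lie apart, which may be technical variation. The samples were whole organs, in which fewer cells of a type and less RNA per cell cannot be told apart. The submitters' processing notes give MAS5, Affymetrix's program for probe set values, for bean 5 mm, and none is given in the sources used here for pod elongation, so a difference in processing and the difference in stage cannot be told apart either.

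A soybean pod is the ovary wall with the ovules inside it, and at the start of elongation the wall is growing while the ovules are small. A seed consists of a maternal seed coat, which passes sugars and amino acids inward, and of the embryo, whose cotyledons later fill with storage proteins and oil. LEC1 and WRI1 are transcription factors known from Arabidopsis to promote embryo maturation and oil synthesis. Green pods and leaves of soybean are known to hold vegetative storage proteins and vegetative lipoxygenases, and jasmonate is known to induce both.

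The arrays were compared by their technical features, of which the hybridization controls and the actin ratio had served to choose this pair of stages. The median deposited intensity over soybean probe sets was 50.3 and 49.7 on the bean 5 mm arrays, against 59.4 and 59.1 on the pod elongation arrays, and every array was scaled to a median of 49.5. The 9 bacterial and phage hybridization controls had a geometric mean of 475 and 482 in bean 5 mm, against 462 and 462 in pod elongation. The signal of the 3' end of actin over that of its 5' end rises when RNA is degraded. On the actin control used for the choice it was 2.07 and 2.22 in bean 5 mm, against 2.05 and 2.09 in pod elongation. Another actin control had 3' signals of 1248 and 1218 in bean 5 mm, against 1393 and 1363 in pod elongation. Its 5' signals were far dimmer, at 34.83 and 25.34 in bean 5 mm, against 22.28 and 20.37 in pod elongation. On that control the 3' excess was larger, and larger in pods than in beans. Whether RNA quality was alike was not tested. Background, the 95th percentile of the probe sets for 2 soybean pathogens that the array also carries, was a scaled signal of 6.04 and 6.71 in bean 5 mm, against 5.797 and 5.98 in pod elongation. Replicates differed by a median of 0.131 in bean 5 mm and 0.117 in pod elongation, in absolute log2 units.

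Of 33625 soybean probe sets above background on at least 2 arrays, 13967 differed between the stages (41.5%, limma with Benjamini-Hochberg adjustment over all tested probe sets, adjusted p below 0.05). Beans were higher for 7971 (23.7%) and lower for 5996 (17.8%). Larger differences leaned the other way. Called with at least a 2-fold difference were 5262 probe sets (15.6%), 2019 higher in beans and 3243 lower, and with at least an 8-fold difference 308 were higher and 411 lower. The median log2 difference of all tested probe sets was 0.12, so a small rise is close to what the typical probe set showed. The share of calls that were higher, 57.1%, depended on the scaling: it was 33.1% for the intensities as deposited, where the median difference was -0.05, and 30.7% after scaling to the hybridization controls, where it was -0.09. All differences are thus read against the middle transcript of an array.

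**Figure D1:**
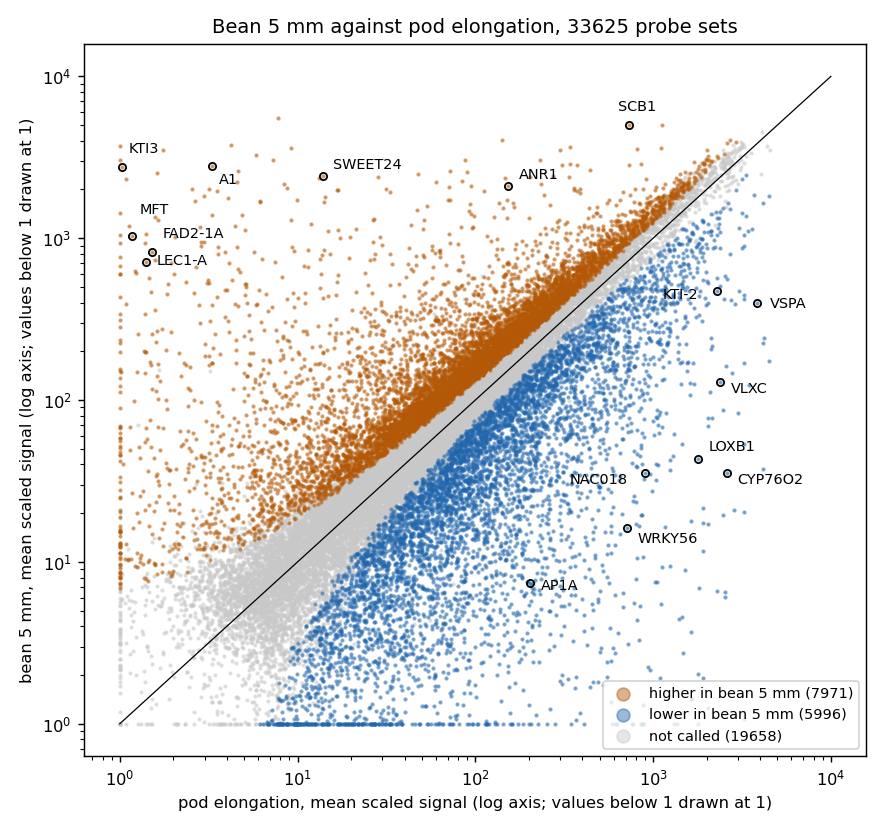
Mean scaled signal of the 2 bean 5 mm arrays (vertical log axis) against that of the 2 pod elongation arrays (horizontal log axis), 1 point per tested probe set, with values below 1 drawn at 1. The line marks equal signal, and 7971 probe sets were called higher in bean 5 mm and 5996 lower. KTI3, A1, MFT, FAD2-1A and LEC1-A lie at the upper left, below background in pods, while CYP76O2, VSPA, VLXC and LOXB1 lie at the lower right.

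Several transcripts were nearly absent from one organ and abundant in the other. By a count chosen after the values were seen, 647 probe sets (1.92% of those tested) exceeded background on both bean 5 mm arrays and on neither pod elongation array, and 1579 (4.70%) did the reverse. Of these, 428 and 1110 were called different. Over all soybean probe sets 81.8% and 80.9% exceeded background on the bean 5 mm arrays, against 84.5% and 85.0% on the pod elongation arrays. Of the 647, 131 had a mean scaled signal above 100 in beans, and of the 1579, 164 had one in pods. Gene symbols other than locus numbers were available for 951 tested genes, each represented by its brightest tested probe set. Of these genes 280 were higher in beans (29.4%) and 295 lower (31.0%), and the gene groups that follow are read against those shares. A fold change is on the scale of log2(scaled signal + 16), which understates the change of dim transcripts. Where no array of the dimmer stage exceeded background, the fold is a lower bound, written "at least", which divides the brighter stage's geometric mean by the dimmer stage's background.

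Among named genes SSTP-1 had the largest log2 difference with the added 16, an order that cannot be set against genes below background in pods, with scaled signals of 5231 and 5891 in bean 5 mm, against 7.26 and 8.27 in pod elongation (234-fold higher, adjusted p = 9.21e-09). Its other probe set rose less, and the mean over both gave a log2 difference of 4.37, beside 7.87 for the brighter set. P89 was at 1674 and 2358 in bean 5 mm, against 4.34 and 0.7503 in pod elongation, and P91 at 398 and 1076 in bean 5 mm, against 2.41 and 0.737 in pod elongation. The 15 largest rises among named genes further included SC-03, at 860.1 and 829 in bean 5 mm, against 10.2 and 12.6 in pod elongation (31.4-fold higher). In all these genes both bean arrays lay above both pod arrays, as the rule for naming the largest rises required. That held for 43.8% of all named genes. Enzymes of basic metabolism were also among these rises. SODB2, named after iron superoxide dismutases, which remove superoxide, rose 36.7-fold and SODB 29.2-fold, while GS1-GAMMA, a cytosolic glutamine synthetase, which assimilates ammonium, was at 858 and 1182 in bean 5 mm, against 21.99 and 17.3 in pod elongation (28.8-fold higher). The probe sets of P89 and SODB are of a kind that can match several transcripts. As means over their probe sets their log2 differences were 4.98 and 3.51, beside 6.76 and 4.87.

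All 3 embryo regulators rose, with a median log2 difference of 5.40 beside 0.12 for all tested probe sets. LEC1-A, a subunit of the trimeric factor NF-Y, had a scaled signal of 695 and 740.1 in bean 5 mm, against 0.2499 and 2.54 in pod elongation, so that it was not above background in pods (at least 122-fold higher, adjusted p = 1.78e-07). MFT, a relative of the flowering signal FT that acts in seed dormancy and germination in Arabidopsis, was at 801 and 1266 in bean 5 mm, against 0.623 and 1.72 in pod elongation (at least 171-fold higher, adjusted p = 6.62e-07). WRI1B was lower in level, at 147 and 182 in bean 5 mm, against 3.87 and 2.51 in pod elongation (at least 27.7-fold higher, adjusted p = 3.28e-06). For each of the 3 the bean and pod arrays did not overlap, as for 43.8% of named genes in that direction.

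Seed storage transcripts divided by kind. Of 12 tested albumins and protease inhibitors 6 rose and 4 fell, with a median log2 difference of 1.94. KTI3, a Kunitz trypsin inhibitor of the seed, had 2254 and 3244 in bean 5 mm, against 0.542 and 1.51 in pod elongation (at least 459-fold higher, adjusted p = 9.39e-08). A1, placed in this list by its symbol, had nearly the same levels, 2367 and 3238 in bean 5 mm, against 2.68 and 3.92 in pod elongation (at least 470.4-fold higher). Both were abundant in beans and below background in pods. D-II, a Bowman-Birk inhibitor, was at 123 and 1078 in bean 5 mm, against 0.172 and 0.171 in pod elongation (at least 61.9-fold higher, adjusted p = 0.00102), and GM2S-1, a 2S albumin, at 81.6 and 232 in bean 5 mm, against 0.624 and 0.196 in pod elongation (at least 23.4-fold higher). These 2 bounds rested on unequal bean arrays, and without bean 5 mm replicate 2 they were 20.9-fold and 13.9-fold.

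Other inhibitors were higher in pods. KTI-2, a Kunitz inhibitor, stood at 274 and 665 in bean 5 mm, against 2323 and 2244 in pod elongation (5.18-fold lower, adjusted p = 0.00045), and KTI-3 at 452 and 639.6 in bean 5 mm, against 2052 and 1944 in pod elongation (3.63-fold lower, adjusted p = 3.94e-05). BBI-1, a Bowman-Birk inhibitor, was at 8.22 and 11.8 in bean 5 mm, against 77.8 and 78.9 in pod elongation (3.63-fold lower), with a log2 difference of -1.86, or -1.17 as a mean over its probe sets, 1 of 2 being called lower. CYSTATIN, an inhibitor of cysteine proteases, fell by 0.52 on the log2 scale (adjusted p = 0.015), or by 0.82 after scaling to the hybridization controls. It was not called without bean 5 mm replicate 2 or either pod elongation array (adjusted p = 0.127, 0.0549 and 0.107). The Kunitz genes thus did not share a direction. KTI1 rose with KTI3, at 39.1 and 260.0 in bean 5 mm, against 0.399 and 2.11 in pod elongation (at least 17.1-fold higher), where KTI-2 and KTI-3 fell. Without bean 5 mm replicate 2 the log2 difference of KTI1 was 1.68 in place of 2.84, and its bound 6.64-fold. The probe sets of KTI3, KTI-2, BBI-1 and P34 are of a kind that can match several transcripts, and without such sets 4 members rose and 2 fell, fewer genes being tested.

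The storage globulins, by contrast, were mostly at background in both organs. Of 9 tested, 2 were called, with a median log2 difference of 0.13. CG-BETA-1, a beta-conglycinin, was at 2.81 and 0.801 in bean 5 mm, against 0.316 and 0.189 in pod elongation, and GY5, a glycinin, at 2.78 and 0.844 in bean 5 mm, against 2.18 and 0.582 in pod elongation, all below background. GY1, the glycinin with the largest difference, had 13.7 and 550.1 in bean 5 mm, against 0.125 and 0.273 in pod elongation (log2 difference 3.0, SE 1.02, adjusted p = 0.0418), with most of its bean signal on 1 array. CG-1 was the other called member, at 7.58 and 47.8 in bean 5 mm, against 0.591 and 0.147 in pod elongation (log2 difference 1.24, SE 0.41, adjusted p = 0.0363). GY2 had 4.57 and 136 in bean 5 mm, against 0.0938 and 2.42 in pod elongation and was not called (adjusted p = 0.0807), although it was called higher without bean 5 mm replicate 1, with a pseudocount of 1 and with 2 of the other scalings (adjusted p between 1.56e-05 and 0.0384). These calls were fragile. GY1 lost its call without either pod elongation array (adjusted p = 0.146 and 0.149) and CG-1 without bean 5 mm replicate 2 or either pod elongation array (adjusted p = 0.226, 0.128 and 0.144). Without either bean 2 mm array, and with a pseudocount of 64 in place of 16, neither was called, and with a pseudocount of 1 the number higher was 4. It was 3 without bean 5 mm replicate 1, and 1 without the filter on dim probe sets or with a fit to the 4 arrays alone.

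Genes of late embryogenesis and seed maturation, whose proteins protect the drying embryo, were already higher in beans for 16 of 29 tested members, with a median log2 difference of 0.99, and 14 rose at least 2-fold (48.3%), beside 14.1% of all named genes. PM30 was at 547 and 1313 in bean 5 mm, against 0.196 and 0.206 in pod elongation (at least 144-fold higher, adjusted p = 2.26e-06). LEA5 was at 225 and 459.6 in bean 5 mm, against 2.07 and 0.691 in pod elongation (at least 54.7-fold higher), and PM34 at 131 and 396 in bean 5 mm, against 0.859 and 3.01 in pod elongation (at least 38.6-fold higher). None of these 3 exceeded background in pods, and without bean 5 mm replicate 2 the bounds of PM30 and PM34 were 93-fold and 22.2-fold. PM12, on a probe set that can match several transcripts, had 152 and 348 in bean 5 mm, against 3.15 and 6.87 in pod elongation (11.8-fold higher) and PM29 133 and 239 in bean 5 mm, against 0.128 and 6.204 in pod elongation (10.3-fold higher), each above background on 1 pod array. The only called fall was that of LEA-2, at 229.6 and 215 in bean 5 mm, against 511 and 469 in pod elongation (2.12-fold lower, adjusted p = 0.000713), chosen after its values were seen. Others were dim in both organs, such as PM31 at 4.68 and 0.946 in bean 5 mm, against 2.42 and 6.47 in pod elongation and PM28 at 1.06 and 5.95 in bean 5 mm, against 1.79 and 4.21 in pod elongation.

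**Figure D2:**
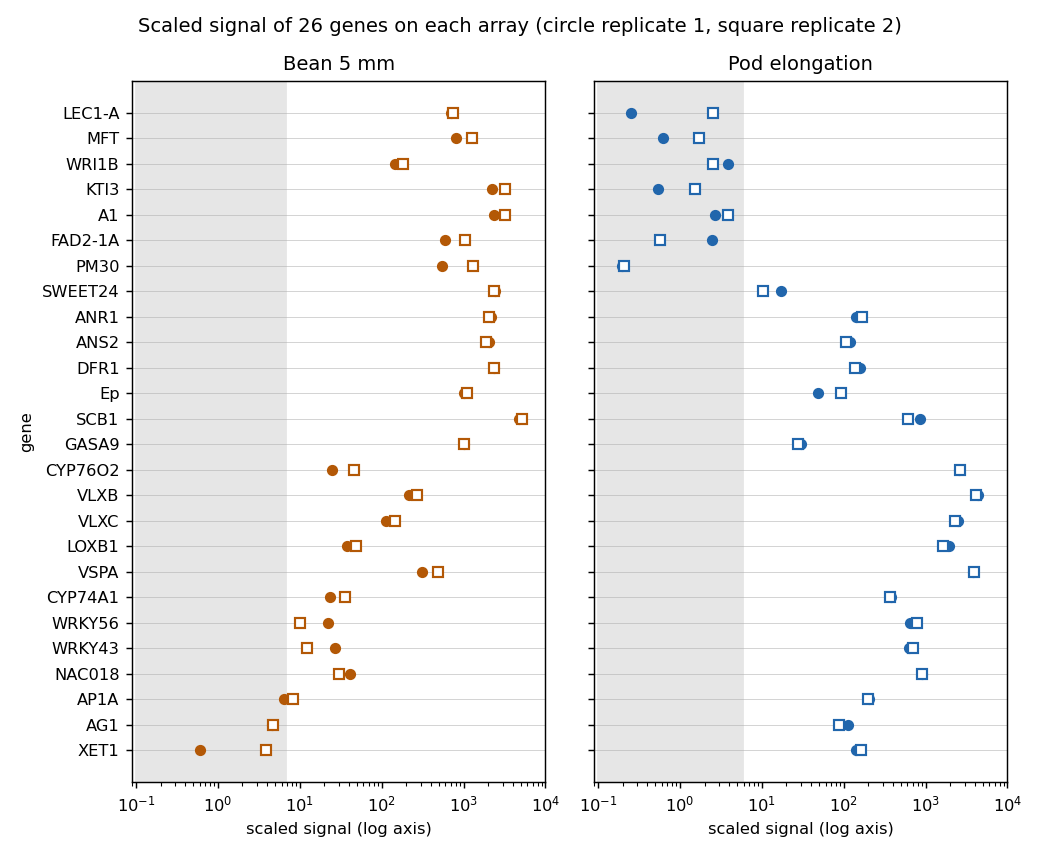
Scaled signal (log axis) of 26 named genes on the 2 bean 5 mm arrays (left) and the 2 pod elongation arrays (right), with circles for replicate 1 and squares for replicate 2. Grey marks signals up to the higher background of the 2 arrays of a stage, 6.71 for bean 5 mm and 5.98 for pod elongation. LEC1-A, MFT, WRI1B, KTI3, A1, FAD2-1A and PM30 lie in the grey on both pod arrays, and AG1 and XET1 on both bean arrays.

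Oil synthesis genes rose for 9 of 17 tested members and fell for 3, with a median log2 difference of 0.61. FAD2-1A, the seed oleate desaturase, was at 599 and 1036 in bean 5 mm, against 2.44 and 0.576 in pod elongation (at least 134-fold higher, adjusted p = 3.52e-07). SACPD-C, which makes oleate in the plastid, had 1582 and 1842 in bean 5 mm, against 346 and 786 in pod elongation (3.199-fold higher, adjusted p = 0.00296), and its log2 difference of 1.68 was 1.1 without pod elongation replicate 1. FAD3C, a linoleate desaturase, was at 595 and 581 in bean 5 mm, against 186 and 160.0 in pod elongation (3.204-fold higher). Subunits of the plastid acetyl-CoA carboxylase, the entry to fatty acid synthesis, rose by smaller steps in 4 cases, ACCC-3 2.25-fold, ACCC-2 2.15-fold, ACCA-1 1.96-fold and ACCB-2 1.86-fold, and so did the condensing enzyme KASII-A (2.19-fold higher). ACCB-1, another subunit, was at 202 and 213 in bean 5 mm, against 187 and 165 in pod elongation and was not called (adjusted p = 0.213), and ACCC-2 was not called without bean 5 mm replicate 2 (adjusted p = 0.0501). DGAT1A, which joins the last fatty acid to the oil molecule, was at 48.96 and 47.9 in bean 5 mm, against 42.1 and 47.5 in pod elongation and was not called (adjusted p = 0.689).

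The desaturases FAD7-2, FAD2-2 and FAD2-3 were higher in pods. FAD7-2, a plastid omega-3 desaturase, stood at 54.2 and 40.1 in bean 5 mm, against 425 and 575 in pod elongation (8.13-fold lower, adjusted p = 8.44e-05). FAD2-2 had 607 and 619 in bean 5 mm, against 1644 and 1584 in pod elongation (2.59-fold lower) and FAD2-3 362 and 354 in bean 5 mm, against 1216 and 1117 in pod elongation (3.16-fold lower). The members of the FAD2 family therefore differed in direction, with FAD2-1A higher in beans and FAD2-2 and FAD2-3 lower. Probe sets of FAD7-2, FAD2-3 and ACCC-2 can match several transcripts, and without such sets 1 member fell, fewer genes being tested.

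Flavonoid enzymes changed in both directions. Of 34 tested enzymes 13 rose and 16 fell, with a median log2 difference of -0.16, and 12 in each direction changed at least 2-fold. The enzymes of the proanthocyanidin branch, which makes tannins of the seed coat, were high in beans. DFR1, dihydroflavonol reductase, had 2346 and 2339.9 in bean 5 mm, against 159 and 136 in pod elongation (14.5-fold higher) and DFR2 644 and 572 in bean 5 mm, against 22.9 and 25.1 in pod elongation (15.6-fold higher). ANS2, anthocyanidin synthase, was at 2043 and 1891 in bean 5 mm, against 119 and 106 in pod elongation (15.5-fold higher, adjusted p = 2.94e-07), and ANR1, anthocyanidin reductase, at 2156 and 2027 in bean 5 mm, against 140.2 and 166 in pod elongation (12.5-fold higher, adjusted p = 1.27e-06). LAR1, leucoanthocyanidin reductase, was dimmer, at 59.5 and 65.6 in bean 5 mm, against 0.604 and 0.933 in pod elongation, and below background in pods (at least 10.6-fold higher). IFR1, an isoflavone reductase by its symbol, rose most of the list, at 846 and 751 in bean 5 mm, against 1.66 and 5.47 in pod elongation (at least 135-fold higher, adjusted p = 2.38e-07), and its other probe sets were called higher too.

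A chalcone reductase, which acts in the legume route to deoxy-chalcones, a flavonol synthase and a chalcone synthase were higher in pods. CHR5, a chalcone reductase, was at 0.845 and 3.998 in bean 5 mm, against 221 and 233 in pod elongation (at least 35.6-fold lower, adjusted p = 5.63e-07). FLS1, flavonol synthase, had 34.1 and 35.2 in bean 5 mm, against 404 and 369 in pod elongation (7.94-fold lower, adjusted p = 5.98e-07). CHS1, chalcone synthase, was at 9.34 and 11.2 in bean 5 mm, against 137 and 185 in pod elongation (6.67-fold lower), although another of its probe sets was called in the opposite direction, and the mean over its probe sets was -1.26, beside -2.74. 4CL2, 4-coumarate CoA ligase, was at 93.7 and 87.02 in bean 5 mm, against 639 and 751 in pod elongation (6.67-fold lower), while 4CL4 rose 2.44-fold and 4CL 2.05-fold. Chalcone isomerases also differed, with CHI4A 3.68-fold higher and CHI2-A 2.18-fold higher, against CHI1A 2.94-fold lower and CHI3A1 2.03-fold lower. CHI3A1 was not called without bean 5 mm replicate 1 or pod elongation replicate 1 (adjusted p = 0.0636 and 0.0505), and its mean over probe sets was -0.67, beside -1.02. Of the isoflavone enzymes, HIDH, which completes isoflavones, fell 2.39-fold, IF7MaT, a malonyltransferase, rose 6.73-fold. Of the isoflavone synthases IFS1 rose, at 21.2 and 46.7 in bean 5 mm, against 6.05 and 7.55 in pod elongation (2.12-fold higher, adjusted p = 0.00493), and IFS2 was not called, at 24.9 and 30.3 in bean 5 mm, against 26.4 and 17.3 in pod elongation, both on probe sets that can match several transcripts. Without bean 5 mm replicate 2 the log2 difference of IFS1 was 0.71, in place of 1.08. The probe sets of CHR5, CHS1, 4CL2, CHI4A, CHI1A, IF7MaT and IFS2 can match several transcripts. Without such sets 9 enzymes rose and 7 fell, fewer genes being tested.

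The genes listed as seed coat markers rose without exception, 5 of 5, and the tissue in which each was transcribed was not tested. SCB1, a seed coat BURP-domain protein, was abundant in beans, at 4819 and 5175 in bean 5 mm, against 844 and 618 in pod elongation (6.78-fold higher, adjusted p = 5.35e-05). HPS, a hydrophobic protein of the seed surface, had 1386 and 1919 in bean 5 mm, against 125 and 147 in pod elongation (10.9-fold higher, adjusted p = 8.37e-07). ANR1, ANS2 and SWEET24 are the others. The summed scaled signal of these 5 was 12853 and 13388 in bean 5 mm, against 1245 and 1048 in pod elongation. The 5 did not share a course over the remaining stages. HPS was at 7.20 and 5.20 at bean 2 mm and at 7294 and 7008 when fully grown, and SWEET24 at 1054 and 1007, then 4326 and 4751. SCB1 was at 4099 and 4970 at bean 2 mm and at 434 and 807 when fully grown. ANR1 and ANS2 were also dimmer in fully grown beans than in bean 5 mm. Ep, the seed coat peroxidase, was at 1014 and 1109 in bean 5 mm, against 48.5 and 92.95 in pod elongation (12.8-fold higher, adjusted p = 1.16e-05). Of 7 embryo markers 5 rose, with summed signals of 3718 and 5788 in bean 5 mm, against 10.9 and 9.83 in pod elongation, and all 7 were at or below background on both pod arrays. CG-BETA-1 was below background in beans too, and LOX1.1, a seed lipoxygenase, was at 5.49 and 35.7 in bean 5 mm, against 3.402 and 2.22 in pod elongation and was not called (adjusted p = 0.0702), although it was called higher without bean 5 mm replicate 1 (adjusted p = 0.000423), with a pseudocount of 1 (adjusted p = 0.0381) and with 3 of the other scalings.

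Sugar transporters rose for 4 members of the SWEET family, which lets sucrose or hexoses leave cells. SWEET24 was at 2449.5 and 2376 in bean 5 mm, against 17.2 and 10.5 in pod elongation (81.95-fold higher, adjusted p = 2.34e-08), SWEET13 at 348 and 279.5 in bean 5 mm, against 38.6 and 25.8 in pod elongation (6.87-fold higher), SWEET31 at 64.2 and 87.4 in bean 5 mm, against 1.01 and 1.95 in pod elongation (at least 12.7-fold higher; log2 difference 2.38, or 1.40 as a mean over its probe sets) and SWEET17 at 27.1 and 42.3 in bean 5 mm, against 3.92 and 4.13 in pod elongation (at least 5.75-fold higher). SWEET28 behaved in the opposite way, at 5.18 and 6.79 in bean 5 mm, against 46.6 and 48.7 in pod elongation (2.898-fold lower, adjusted p = 7.83e-05). SS, sucrose synthase, rose 1.57-fold (log2 difference 0.65, or 1.28 as a mean over its probe sets), and the sucrose carrier SUT1 fell by 0.75 on the log2 scale (adjusted p = 0.0235) on a probe set open to several transcripts, or by 0.50 as a mean over its probe sets. SS was not called after scaling to the hybridization controls or without bean 5 mm replicate 2 (adjusted p = 0.0632 and 0.0521), and SUT1 was not without bean 5 mm replicate 1 or either pod elongation array (adjusted p = 0.16, 0.107 and 0.105). Of all 10 tested members 5 rose and 2 fell, with a median of 0.42, and 1 fell without bean 5 mm replicate 1 or either pod elongation array.

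Regulators of flower organs were called in both directions, 4 of 7 higher and 3 lower. MADS28 was at 597 and 474 in bean 5 mm, against 56.4 and 49.2 in pod elongation (7.98-fold higher, adjusted p = 6.75e-07), and AGL1L at 1232 and 1160.5 in bean 5 mm, against 472 and 419.6 in pod elongation (2.63-fold higher). NMH7, on a probe set that can match several transcripts, rose 1.94-fold, and SEP1 1.398-fold, although SEP1 lost its call after scaling to the hybridization controls, with the deposited intensities and without pod elongation replicate 1 (adjusted p = 0.412, 0.34 and 0.0578). AP1A and AG1, homologues of the Arabidopsis genes that set the identity of outer and inner flower organs, were higher in pods. AP1A was at 6.46 and 8.38 in bean 5 mm, against 205 and 200.5 in pod elongation (9.35-fold lower, adjusted p = 4.68e-05) and AG1 at 4.56 and 4.68 in bean 5 mm, against 114 and 88.4 in pod elongation (at least 15.8-fold lower, adjusted p = 2.2e-05). The 4 flower organ markers, AP1A, AG1, SEP1 and AGL1L, summed to 1413 and 1342 in bean 5 mm, against 906.0 and 827 in pod elongation. Most of the bean sums came from AGL1L, with 1232 and 1160.5, so they do not describe AP1A and AG1, which fell. AG1 was below background in beans. The part of flower remnants in the pod values was not tested.

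Small secreted GASA peptides, which respond to gibberellin, rose for 10 of 16 members and fell for 5, with a median log2 difference of 0.78. GASA9 was at 1027 and 1015 in bean 5 mm, against 29.98 and 28.1 in pod elongation (23.03-fold higher, adjusted p = 5.91e-06), and GASA12 at 169.6 and 251 in bean 5 mm, against 4.48 and 2.21 in pod elongation (at least 35.1-fold higher). GASA4 had 198 and 339.7 in bean 5 mm, against 9.53 and 12.9 in pod elongation (10.2-fold higher). GASA6 and GASA11 stood at the other end, at 5.92 and 10.2 in bean 5 mm, against 383 and 439 in pod elongation (17.8-fold lower, adjusted p = 3.09e-06) and at 8.91 and 12.6 in bean 5 mm, against 286 and 409.7 in pod elongation (13.4-fold lower).

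Auxin, cytokinin and gibberellin genes were called in both directions. LAX11, an auxin influx carrier, was at 690.3 and 673 in bean 5 mm, against 49.8 and 42.4 in pod elongation (11.3-fold higher, adjusted p = 0.00012), and PIN2A, an efflux carrier, at 22.9 and 17.3 in bean 5 mm, against 0.484 and 3.84 in pod elongation (at least 3.38-fold higher). AUX22, an auxin-response gene, fell 2.55-fold, and TIR1C, an auxin receptor, fell by 0.41 on the log2 scale (adjusted p = 0.0156) on a probe set that can match several transcripts, a call lost without any 1 of the 4 arrays compared (adjusted p between 0.0553 and 0.111). Its log2 difference of -0.41 was -0.71 after scaling to the hybridization controls and -0.65 with deposited intensities. Of 8 auxin genes 2 rose and 2 fell. CKX3, which degrades cytokinin, was at 107 and 68.5 in bean 5 mm, against 339 and 351 in pod elongation (3.53-fold lower, adjusted p = 9.71e-05). GA20OX3, a gibberellin synthesis enzyme, was at 36.9 and 40.5 in bean 5 mm, against 12.3 and 6.59 in pod elongation (2.16-fold higher), and the growth repressors GAI1 and GAI2 rose 2.32-fold and 1.58-fold. GAI1 and GAI2 lost their calls without bean 5 mm replicate 2 or pod elongation replicate 2, which left 1 of 7 cytokinin and gibberellin genes higher in place of 3. As means over their probe sets their log2 differences were 0.75 and 0.40, beside 1.21 and 0.66.

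**Figure D3:**
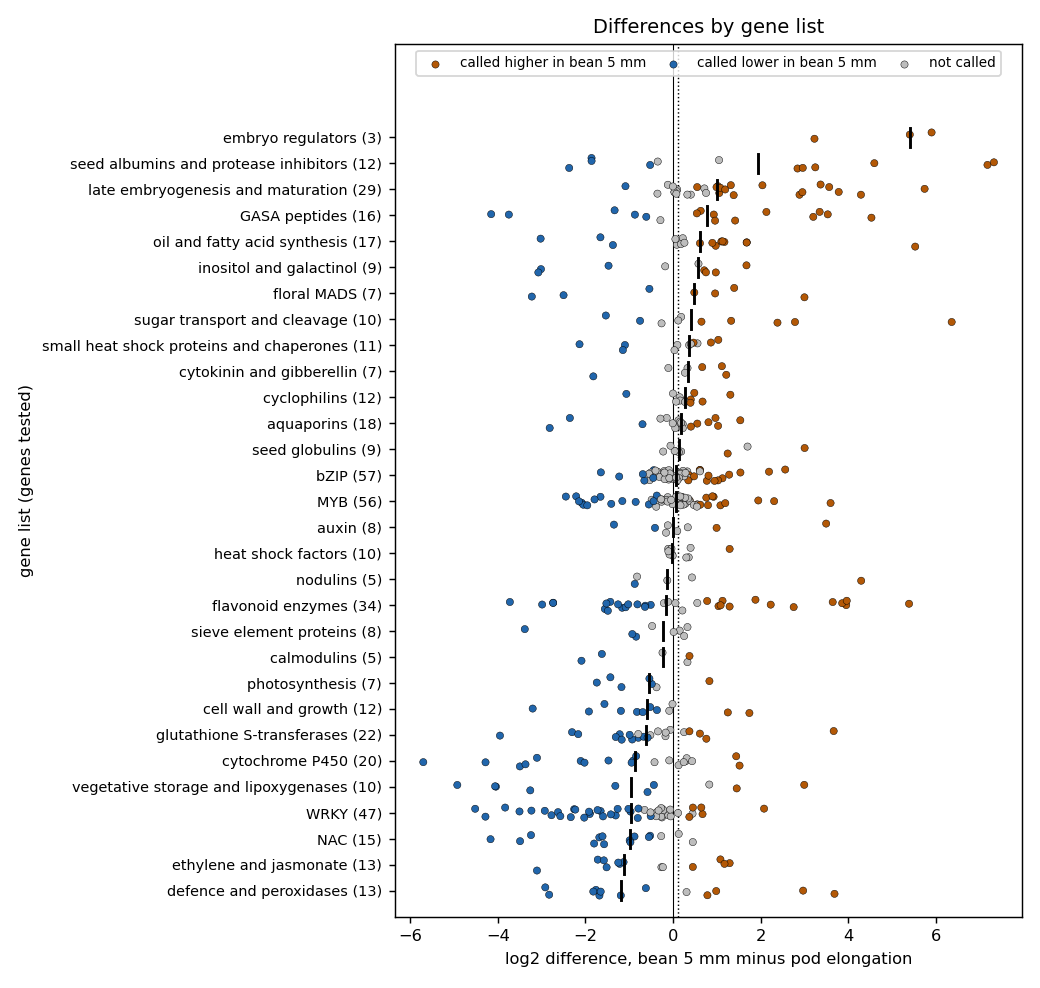
Log2 difference, bean 5 mm minus pod elongation (horizontal axis), of every tested gene of 30 gene lists (rows, with the number tested), coloured by call. Thick bars mark each list's median, from 5.40 for embryo regulators to -1.19 for defence and peroxidases, the solid line zero and the dotted line the median of all tested probe sets, 0.12.

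In elongating pods the vegetative storage protein and its companion lipoxygenases were abundant. VSPA was at 309 and 489 in bean 5 mm, against 3805 and 3919.5 in pod elongation (9.58-fold lower, adjusted p = 0.00729). VLXB had 215 and 269 in bean 5 mm, against 4304 and 4135 in pod elongation (16.5-fold lower, adjusted p = 9.68e-05), VLXC 112 and 145 in bean 5 mm, against 2494 and 2272 in pod elongation (16.7-fold lower) and LOXB1 37.6 and 49.2 in bean 5 mm, against 1944 and 1629 in pod elongation (30.4-fold lower). Both pod arrays lay above both bean arrays for each of the 4, as for 42.1% of all named genes. The rule for naming the largest falls required it of VLXB, VLXC and LOXB1. As a mean over its probe sets LOXB1 had a log2 difference of -2.69, beside -4.93. VSPA had -2.38 as such a mean, beside -3.26, with 5 of its 7 probe sets called lower. The 2 bean 2 mm arrays of VSPA were far apart, at 243 and 1591, and enter the shared spread. LOX7 and LOX9 differed less, at 1736 and 1565 in bean 5 mm, against 4135 and 4134 in pod elongation (2.49-fold lower) and at 2482 and 2446 in bean 5 mm, against 3363 and 3329 in pod elongation (1.36-fold lower). LOX9 lost its call whichever of the 4 arrays compared was left out (adjusted p between 0.0798 and 0.0964), and its log2 difference of -0.44 was -0.68 to -0.91 with 3 of the other scalings. Of the 10 tested members 7 fell and 2 rose, with a median of -0.95.

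The members that rose were the seed lipoxygenases LOX2, at 38.7 and 403 in bean 5 mm, against 2.83 and 3.21 in pod elongation, and LOX3, at 8.58 and 87.9 in bean 5 mm, against 3.77 and 1.28 in pod elongation, each much brighter on bean replicate 2 than on replicate 1. Without either pod elongation array neither was called (adjusted p = 0.0533 and 0.0543 for LOX2). LOX3 was close to the threshold (adjusted p = 0.0493) and was not called under 11 of the alternatives (adjusted p between 0.0502 and 0.193). Its log2 difference of 1.45 was 2.49 without bean 5 mm replicate 1, 0.41 without replicate 2 and 2.33 as a mean over its probe sets. The number of list members higher was 1 without bean 5 mm replicate 2 or either bean 2 mm array. VSPA was not called without bean 5 mm replicate 1 (adjusted p = 0.0548), and 4 members then fell. Probe sets of VSPA, LOXB1, LOX7 and LOX9 can match several transcripts, and those of LOXB1 and VLXB share the main number of their identifiers. Without sets that can match several transcripts 3 members fell, fewer genes being tested. H4, named after a histone and among the 15 largest falls at 12.3 and 9.02 in bean 5 mm, against 818 and 795 in pod elongation, shares its main number with VSPA, so a fall of a histone transcript is not established.

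Most jasmonate synthesis genes were higher in pods. CYP74A1, an allene oxide synthase, was at 23.7 and 35.4 in bean 5 mm, against 379 and 368 in pod elongation (8.62-fold lower, adjusted p = 1.95e-06). The allene oxide cyclases, which act next, were lower in beans for all 3 tested, AOC4 at 473 and 368 in bean 5 mm, against 1311 and 1515 in pod elongation (3.29-fold lower), AOC6 2.86-fold lower and AOC3 2.19-fold lower. AOS2 fell 2.38-fold, while AOS1 rose, at 341 and 303 in bean 5 mm, against 115 and 129.6 in pod elongation (2.44-fold higher, adjusted p = 0.000459), with a log2 difference of 0.53 as a mean over its probe sets, beside 1.29. COI1, the jasmonate receptor, was not called (adjusted p = 0.131) but was called lower with 3 of the other scalings (adjusted p between 0.0251 and 0.0455). Of the ethylene genes, the receptors ETR2 and EIN4 rose 2.25-fold and 2.11-fold, and ACS1, which makes the ethylene precursor, fell, at 525 and 186 in bean 5 mm, against 703 and 807 in pod elongation (2.33-fold lower, adjusted p = 0.0427). The bean arrays differed here: leaving out bean 5 mm replicate 1 gave a log2 difference of -1.93, and leaving out replicate 2 gave -0.51, in place of -1.22. The call was lost without bean 5 mm replicate 2 or either pod elongation array (adjusted p = 0.281, 0.12 and 0.183). Its call was also lost without either bean 2 mm array (adjusted p = 0.0593 and 0.0592), with a pseudocount of 1 (adjusted p = 0.0642), without the filter on dim probe sets (adjusted p = 0.0524) and with replicate numbers as a block (adjusted p = 0.0571). Over both hormones 7 of 13 fell and 4 rose, with a median of -1.13.

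The WRKY family, transcription factors known from defence and senescence, was lower in beans for 27 of 47 tested members and higher for 5, with a median log2 difference of -0.97. At least 2-fold falls numbered 23 (48.9%), beside 21.7% of all named genes. WRKY56 was at 22.1 and 10.2 in bean 5 mm, against 636 and 786 in pod elongation (22.9-fold lower, adjusted p = 1.25e-05) on a probe set that can match several transcripts, and its other probe sets were called lower too. WRKY43 had 27.2 and 12.3 in bean 5 mm, against 619.6 and 711 in pod elongation (19.5-fold lower), WRKY60 18.2 and 10.2 in bean 5 mm, against 358 and 471 in pod elongation (14.3-fold lower) and WRKY46 21.8 and 10.1 in bean 5 mm, against 293 and 396 in pod elongation (11.4-fold lower). In all of these bean replicate 1 was brighter than replicate 2. Both lay below the pods, which the rule for naming the largest falls required of WRKY56 and WRKY43. WRKY29 stood apart, at 212 and 176 in bean 5 mm, against 32.7 and 34.7 in pod elongation (4.21-fold higher, adjusted p = 5.4e-06). The number higher was 3 without any 1 of the 4 arrays compared and 1 with the intensities as deposited or scaled to the hybridization controls, so most rises of this family depended on the scaling.

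NAC factors were lower in beans for 12 of 15 tested, and the other 3, NAC51, NAC23 and NAC34, were not called, although NAC51 was called higher in the fits without either or both fully grown arrays (adjusted p between 0.0252 and 0.0267) and with the 4 arrays alone (adjusted p = 0.015). NAC018 was at 40.6 and 30.2 in bean 5 mm, against 912 and 893 in pod elongation (17.95-fold lower, adjusted p = 3.27e-05), NAC6 at 47.3 and 38.9 in bean 5 mm, against 538 and 546 in pod elongation (9.47-fold lower) and NAC3 at 18.2 and 19.98 in bean 5 mm, against 350.4 and 409.8 in pod elongation (11.3-fold lower; log2 difference -3.49, or -2.26 as a mean over its probe sets). The median of the list was -0.99, and 7 members fell when probe sets that can match several transcripts, among them those of NAC3, were left out. MYB factors, in contrast, had no common direction, with 12 of 56 higher, 14 lower and a median of 0.07. MYB172 was at 1177 and 1183 in bean 5 mm, against 75.96 and 90.8 in pod elongation (12.1-fold higher) and MYB73 at 984 and 940.4 in bean 5 mm, against 182 and 182 in pod elongation (4.94-fold higher), while MYB121, at 0.125 and 2.001 in bean 5 mm, against 92.01 and 63.97 in pod elongation, fell at least 12.1-fold and MYB175 4.63-fold.

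Of 57 bZIP factors 14 were higher and 6 lower in beans, but 9 were higher and 11 lower with the intensities as deposited, and 9 and 12 after scaling to the hybridization controls, so the balance of this family turned with the scaling. BZIP132 had 108 and 176 in bean 5 mm, against 10.7 and 9.73 in pod elongation (5.89-fold higher, adjusted p = 1.83e-05) and BZIP70 261 and 301 in bean 5 mm, against 50.7 and 47.3 in pod elongation (4.56-fold higher; log2 difference 2.19, or 1.39 as a mean over its probe sets). BZIP110 was at 69.9 and 57.9 in bean 5 mm, against 226 and 242 in pod elongation (3.14-fold lower). The number higher was 9 without bean 5 mm replicate 2 or pod elongation replicate 1. MYB172, MYB175 and BZIP70 were read from probe sets that can match several transcripts.

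Cytochrome P450 enzymes, which oxidise many kinds of plant metabolites, were lower in beans for 11 of 20 tested and higher for 2, with a median of -0.88. CYP76O2 had the largest fall on the log2(scaled signal + 16) scale among named genes, an order that cannot be set against genes below background in beans, at 24.8 and 45.8 in bean 5 mm, against 2572 and 2620.2 in pod elongation (log2 difference -5.70, SE 1.01, adjusted p = 0.002). Its 2 bean 2 mm arrays were far apart, at 13.4 and 500.0, and enter the shared spread. CYP83E8 was at 37.5 and 42.4 in bean 5 mm, against 1111 and 1032 in pod elongation (19.4-fold lower), CYP77A3 at 42.3 and 33.5 in bean 5 mm, against 584 and 596 in pod elongation (11.3-fold lower) and CYP82A2 at 0.0478 and 3.53 in bean 5 mm, against 151 and 184 in pod elongation (at least 26.2-fold lower). CYP93E1, which oxidises the triterpene precursor of soyasaponins, fell 4.06-fold. The members that rose were CYP97B2 (2.86-fold higher) and CYP90A15 (2.71-fold higher). Probe sets of CYP76O2, CYP83E8, CYP82A2 and CYP93E1 can match several transcripts. Without genes read from such sets 6 fell, fewer genes being tested. CYP76O2 was also lower on its other probe set, which is not of that kind (log2 difference -6.14).

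Defence proteins and peroxidases were lower in beans for 8 of 13 and higher for 4, with a median of -1.19. PR1-7, a pathogenesis-related protein, was at 1.402 and 0.0455 in bean 5 mm, against 89.8 and 117 in pod elongation (at least 16.1-fold lower, adjusted p = 3.24e-06), with a log2 difference of -2.83, or -1.64 as a mean over its probe sets. OLPa, an osmotin-like protein, had 6.76 and 8.62 in bean 5 mm, against 134 and 198 in pod elongation (7.55-fold lower), and PGIP4, an inhibitor of fungal polygalacturonases, 0.674 and 4.47 in bean 5 mm, against 54.4 and 44.6 in pod elongation (at least 7.74-fold lower). The rises were those of the peroxidases Ep, PRX3 and PRX2 and of PR-10, while PR10, listed as another gene, fell. PR-10 had a log2 difference of 0.98, or 0.33 as a mean over its probe sets, and PR10 lost its call whichever of the 4 arrays compared was left out (adjusted p between 0.0552 and 0.0831). PRX3 was at 223 and 302 in bean 5 mm, against 18.3 and 20.3 in pod elongation (7.82-fold higher; log2 difference 2.97, or 1.65 as a mean over its probe sets). Glutathione S-transferases, which conjugate toxic compounds, fell for 11 of 22 and rose for 4. GSTU47 was at 38.4 and 41.96 in bean 5 mm, against 740.4 and 982 in pod elongation (15.5-fold lower, adjusted p = 2.03e-05). Another of its 4 probe sets, at 486 and 498 in bean 5 mm, against 527 and 425 in pod elongation, was not called. As a mean over its probe sets GSTU47 had a log2 difference of -2.80, beside -3.95. GSTF7, in contrast, was at 299.6 and 319 in bean 5 mm, against 8.83 and 10.5 in pod elongation (12.7-fold higher). The transferases that rose numbered 1 with the intensities as deposited and 2 with quantile normalization, with scaling to the hybridization controls, or without bean 5 mm replicate 2, either pod elongation array or either bean 2 mm array. Without probe sets that can match several transcripts, OLPa's among them, 5 defence genes and 5 transferases fell, fewer genes being tested.

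Wall genes of growing organs were mostly lower in beans, 8 of 12, with a median of -0.61. XET1, a xyloglucan endotransglucosylase that loosens walls, was at 0.605 and 3.91 in bean 5 mm, against 139.7 and 165 in pod elongation (at least 23.8-fold lower, adjusted p = 1.47e-06). Its relative XTH1 fell 2.96-fold and the expansin EXP1 2.28-fold. PRP2, a proline-rich wall protein, was at 114 and 127 in bean 5 mm, against 534 and 467 in pod elongation (3.79-fold lower). PRP1 and EXP2 rose, at 459 and 471 in bean 5 mm, against 111 and 147 in pod elongation (3.34-fold higher) and 283 and 241 in bean 5 mm, against 110.1 and 91.8 in pod elongation (2.38-fold higher), so that both families held members of each direction. The number lower was 5 without bean 5 mm replicate 2 or pod elongation replicate 1. PRP1 and PRP2 were read from probe sets that can match several transcripts.

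Photosynthesis genes were measured in 7 cases, 5 lower and 1 higher in beans, with a median of -0.54. CAB3, a chlorophyll-binding protein and abundant in both organs, was at 3261 and 3737 in bean 5 mm, against 4528 and 4559.8 in pod elongation and was not called (adjusted p = 0.14), but it was called lower with the intensities as deposited (adjusted p = 0.00132), with quantile normalization (adjusted p = 0.0443), with scaling to the hybridization controls (adjusted p = 0.000478) and in the fit to 4 arrays (adjusted p = 0.00992). Of the 5 probe sets of CAB3, 1 was called lower and 1 higher. The mean over them was a log2 difference of -0.08, beside -0.38 for the brightest. RCA14, RCABETA and RCAALPHA, Rubisco activases, fell 2.697-fold, 3.34-fold and 2.26-fold. RCA14 and RCAALPHA are measured by sets whose identifiers differ only after their main number, so separate signals are not established. RCAALPHA was no longer called without bean 5 mm replicate 1 or either pod elongation array (adjusted p = 0.0755, 0.0549 and 0.0566). PSAD, a photosystem I subunit, was higher on its brightest probe set, at 1581 and 1704 in bean 5 mm, against 932 and 903 in pod elongation (adjusted p = 0.00397), but lower as a mean over its probe sets (log2 difference -0.64). Fewer were called lower without bean 5 mm replicate 1 or either pod elongation array. The number lower was 2 when CAB3, PETC, RCA14 and RCABETA, read from probe sets that can match several transcripts, were left out. RCA14 was also lower on a probe set not of that kind (log2 difference -1.38).

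The markers of green pod wall and leaf that were found by symbol, CAB3, RCA14, VSPA, VLXC and KTI-2, summed to 4321 and 5390 in bean 5 mm, against 14186 and 13957 in pod elongation. Of these 5, 4 fell and CAB3 was not called, and all 5 were above background in beans. VSPB, also listed as a marker, was not found by symbol. The part of green tissue in the bean values was not tested.

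Among other genes with large falls, STP was at 8.56 and 7.02 in bean 5 mm, against 734 and 869 in pod elongation (34.3-fold lower, adjusted p = 1.46e-07), TSB at 4.48 and 0.382 in bean 5 mm, against 504 and 658 in pod elongation (at least 90.5-fold lower) and EN2 at 12.8 and 21.6 in bean 5 mm, against 801 and 806 in pod elongation (24.9-fold lower). ANN11, an annexin, was at 13.1 and 9.52 in bean 5 mm, against 649 and 505 in pod elongation (21.6-fold lower) on a probe set that can match several transcripts, with a log2 difference of -2.81 as a mean over its probe sets. Of 9 galactinol and inositol phosphate genes 4 rose and 3 fell, with a median log2 difference of 0.58. GOLS, galactinol synthase, which starts the raffinose family of sugars, was at 5.46 and 5.56 in bean 5 mm, against 137 and 181 in pod elongation (at least 24.8-fold lower, adjusted p = 1.95e-06), and MIPS4, an inositol phosphate synthase, at 156 and 182 in bean 5 mm, against 1653 and 1433 in pod elongation (8.43-fold lower) on a probe set that can match several transcripts. MIPS, the other synthase, rose 1.68-fold, also on such a probe set (log2 difference 0.75, or 0.46 after scaling to the hybridization controls and 1.89 as a mean over its probe sets), so the synthases differed in direction. IPK2, an inositol phosphate kinase, rose as well, at 129.9 and 128 in bean 5 mm, against 26.4 and 32.5 in pod elongation (3.19-fold higher, adjusted p = 7.47e-05), and ITPK4 rose 1.96-fold. N-26, nodulin 26, a channel protein known from root nodules, rose, at 430.0 and 371 in bean 5 mm, against 5.21 and 5.23 in pod elongation (at least 67.9-fold higher, adjusted p = 7.3e-08).

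Of 25430 tested probe sets without a single gene 9985 were called (39.3%), a share near that of all tested probe sets. Only sets absent from the annotation, called and with arrays that did not overlap, were ranked, so sets annotated to several genes were not. The largest rises among the ranked sets were those of Gma.10770.1.S1_at, at 2803 and 4657 in bean 5 mm, against 0.807 and 0.511 in pod elongation, and GmaAffx.86095.1.S1_at, at 3535 and 3996 in bean 5 mm, against 4.66 and 3.75 in pod elongation. Of the ranked sets Gma.4630.1.S1_at, at 0.354 and 1.801 in bean 5 mm, against 3211 and 3260.5 in pod elongation, and Gma.1327.2.S1_s_at, at 11.3 and 0.789 in bean 5 mm, against 2612 and 2488 in pod elongation, fell most. On the log2(scaled signal + 16) scale the rises, 7.77 and 7.55, were close to the 7.87 of SSTP-1. The falls, -7.57 and -6.90, were larger than the -5.70 of CYP76O2. Where a called gene had further probe sets, 346 of 370 had the same sign as the brightest one, 229 of them were called in the same direction, and 8 were called in the opposite direction, those of CHS1, HSF-01, PAL2.1, PSAD, SCAM-3 and SOMT-9.

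The remaining stages place these differences in development, as a description with no test, since the genes were chosen by their difference between 2 of the 4 stages. Of the 411 probe sets at least 8-fold lower in bean 5 mm, 406 were highest in pod elongation and 401 were nearer in bean 2 mm to bean 5 mm than to pod elongation, 330 of them within 2-fold of bean 5 mm. The bean 2 mm samples held pods as well as beans by their labels. The arrays of the other stages differed from these 4 in their controls. Hybridization controls were at 838 and 839 for bean 2 mm and 987 and 1032 for fully grown. Ratios on the actin control used for the choice were 3.64 and 3.603 for bean 2 mm and 2.73 and 4.805 for fully grown. Scaled background was 16.0045 and 18.7 in fully grown beans, and the part of these differences in the courses was not tested. Of the 308 probe sets at least 8-fold higher in bean 5 mm, 225 were nearer in bean 2 mm to bean 5 mm, 160 within 2-fold. Their highest stage was bean 5 mm for 151, bean 2 mm for 52 and fully grown beans for 105.

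**Figure D4:**
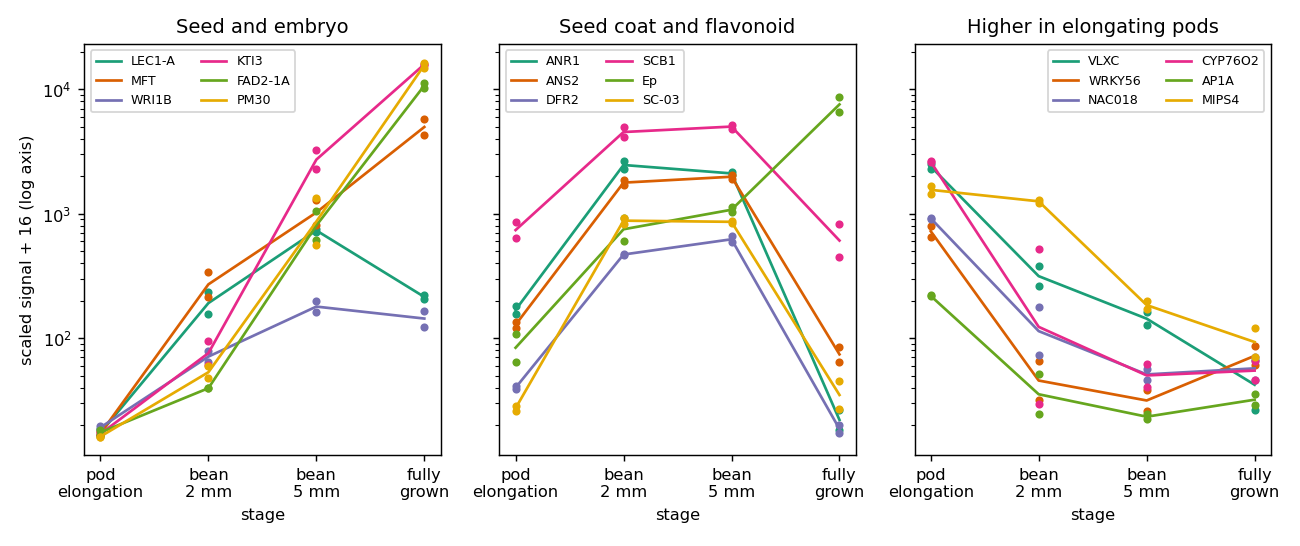
Scaled signal + 16 (vertical log axis) of 18 genes at pod elongation, bean 2 mm, bean 5 mm and fully grown, with dots for single arrays and lines through the stage means on the log scale. KTI3, FAD2-1A, PM30 and MFT were highest in fully grown beans. ANR1, ANS2, DFR2, SCB1 and SC-03 were highest at bean 2 mm and bean 5 mm. Of the 6 genes higher in pods, MIPS4 was near its pod level at bean 2 mm.

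The rises differed in their course over the stages. The bean 2 mm arrays had 2252 and 2656 for ANR1, the bean 5 mm arrays 2156 and 2027 and the fully grown ones 10.7 and 2.21, both below background, so that it was bright at both young bean stages. SC-03 had the same shape, with 912 and 817 at bean 2 mm but 10.9 and 29.4 when fully grown, the lower of them below background. KTI3 had 78.4 and 44.9 at bean 2 mm but 15644 and 16020.2 when fully grown, far above bean 5 mm. LEC1-A had 217 and 141 at bean 2 mm and, when fully grown, 189.8 and 207, below its bean 5 mm level on all 4 arrays. MIPS4, higher in pods than in bean 5 mm, was still at 1281 and 1202 at bean 2 mm, and CKX3, lower in bean 5 mm than in pods, was brightest at bean 2 mm, at 622 and 763. CHR5 and KTI-2 were bright again in fully grown beans, at 572 and 454 and 2082 and 2509.5.

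The 2 bean 5 mm arrays were not alike for storage genes, a comparison made after the values were seen. Over all tested probe sets 109 were at least 2-fold higher on replicate 2 and 76 on replicate 1, whereas 61 differed as much between the pod elongation arrays. At least 2-fold higher on replicate 2 were 3 of 9 globulins, 6 of 12 albumins and inhibitors, 5 of 29 maturation genes and 3 of 10 vegetative storage and lipoxygenase genes, and no member of these lists was as much higher on replicate 1. P34, a seed protein of the papain family, was at 20.4 and 491 on the bean 5 mm arrays, against 2.58 and 0.465 on the pod elongation arrays, and its rise (adjusted p = 0.0286) lost its call without either pod elongation array (adjusted p = 0.105 and 0.128) and with a pseudocount of 64 (adjusted p = 0.0654). Leaving out bean 5 mm replicate 1 moved its log2 difference of 2.96 to 4.86, and leaving out replicate 2 to 1.06. In the same way that of GY1, 3.0, moved to 5.13 and 0.88, and that of CG-1, 1.24, to 1.96 and 0.53. LOX2, with 2.99, had 1.52 without replicate 2.

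**Figure D5:**
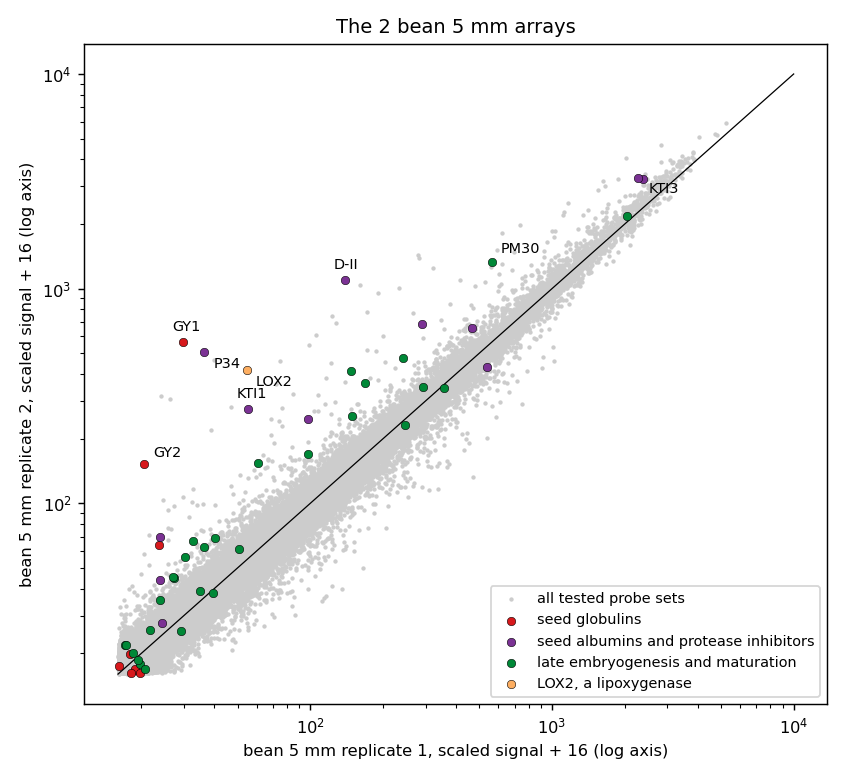
Scaled signal + 16 on bean 5 mm replicate 2 (vertical log axis) against replicate 1 (horizontal log axis) for all tested probe sets (grey) and for the globulins, the albumins and inhibitors, the maturation genes and LOX2 (coloured). The line marks equal signal, and GY1, P34, D-II, LOX2, KTI1 and GY2 lie well above it, GY1 at 550.1 on replicate 2 and 13.7 on replicate 1, while KTI3 lies near it.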

How the data were processed

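Total RNA was measured on the Affymetrix soybean array, with 2 samples in each of 4 stages. Linear intensities were deposited for 37641 soybean probe sets, 23394 probe sets of the pathogens Phytophthora sojae and Heterodera glycines and 135 controls. Per the submitters' processing notes MAS5 made the intensities of bean 5 mm and fully grown samples, while none is given in the sources used here for pod elongation and bean 2 mm.

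Each array was scaled to an equal median over soybean probe sets, and log2(signal + 16) was tested with limma 3.58.1 in R 4.3.3 on all 8 arrays (lmFit, eBayes with trend, contrast of bean 5 mm minus pod elongation, two-sided, Benjamini-Hochberg adjustment). A probe set was tested if it exceeded, on at least 2 arrays, the pathogen probe sets' 95th percentile, and called at an adjusted p below 0.05. The scripts were tested on simulated data. With 2 arrays in a stage, their number limits the precision.

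Of the tested soybean probe sets, 25430 had no single gene in GEO's platform annotation, and symbols were updated through RefSeq (Glycine_max_v4.0). Genes were named by rule: the 15 largest rises and falls among called symbol genes whose arrays did not overlap, up to 5 called members of each of 30 lists, and cell type markers. Of called probe sets absent from the annotation whose arrays did not overlap, the 2 largest rises and falls were named. The lists were written after the symbols were seen. Members and lists were chosen with earlier results of these data known, and further list members and genes named for not being called were chosen after their values were seen. Probe sets whose identifiers end in _s_at, _x_at or _a_at can match several transcripts. Counts without them dropped each gene read from such a set, even where it had other probe sets. Alternatives varied scaling, pseudocount, filter, arrays, block, variance trend, probe sets and threshold.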

Additional observations from a re-analysis of the deposited data

Results flagged for a closer look

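Soybean control probe sets outside the comparison differed between the organs, a signal in data that the comparison did not use. The 3' control probe set of SucBP, a sucrose-binding protein by its name, had a mean scaled signal of 929.3 in bean 5 mm, with 243 and 1616 on the 2 arrays, against 45.8 and 45 in pod elongation. The middle probe set of the same control had a mean of 215.6 in bean 5 mm, with 42.8 and 388, against 13.9 and 9.75 in pod elongation. In both the bean arrays were far apart, with replicate 2 the higher, as for GY1, GY2 and P34. The 5' probe set of SucBP did not rise, at 0.496 and 3.31 in bean 5 mm, against 5.19 and 1.85 in pod elongation, all below background. Among other controls, the 5' probe set named GlutTrans was lower in beans, at 196 and 242, against 731 and 807 in pods, and so was its middle one, at 216 and 218, against 608 and 617.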

How the results depend on the processing

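Of 151 named genes 132 kept their direction and their side of the threshold under every alternative in which their probe set was tested. Without probe sets that can match several transcripts only 112 of the 151 could be fitted, and the rest count as unchanged there. The mean over probe sets had no test, and by it 32 genes moved by at least their SE. PSAD and SCAM-3 changed sign as means over their probe sets, to -0.64 and -0.43. The cause was not tested.

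The number of probe sets higher in beans was 3901 after scaling to the hybridization controls and 3761 with deposited intensities, beside 7971. Quantile normalization gave 7510 higher and 6318 lower. At an adjusted p below 0.01, a stricter threshold by construction, 8943 were called and 4642 were higher. With a pseudocount of 64, which shrinks fold changes by construction, 2803 were called with at least a 2-fold difference, beside 5262, and with a pseudocount of 1, 7329. Leaving out each array in turn gave 8469 to 18058 called, 4288 to 10743 higher, 4181 to 7318 lower and 5087 to 5315 with at least a 2-fold difference. The lowest counts were those without a pod elongation array, 9113 without replicate 1 and 8469 without replicate 2, and those without a bean 5 mm array were 9429 and 9327. Without the fully grown arrays, whose replicates were farthest apart (median absolute log2 difference 0.274), 18052 were called, and 18196 with the 4 compared arrays alone.

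With the replicate number as a block 13526 were called, 7660 higher and 5866 lower. Deviations of same-numbered bean 5 mm and pod elongation arrays correlated at -0.0474, and over all pairs of stages between -0.0474 and 0.103, which does not pair the arrays by number, and the block ended some calls, among them those of CYP26 and ACS1 (adjusted p = 0.0669 and 0.0571). Signal over background limits the dim transcripts: no fold is exact where a stage lies below its background of 5.797 to 6.71.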

Other observations

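Water channels and stress proteins were not described above. Of 18 tested aquaporins 6 rose and 3 fell, with a median log2 difference of 0.17. PIP2-1, of the plasma membrane class, was at 1367 and 1489 in bean 5 mm, against 527 and 442 in pod elongation (2.89-fold higher, adjusted p = 0.000111), with a log2 difference of 1.53, or 2.98 as a mean over its probe sets. PIP1-1 was at 112 and 110.0 in bean 5 mm, against 918 and 842 in pod elongation (7.04-fold lower, adjusted p = 7.52e-06) and NIP1-8, of the nodulin 26-like class, at 77.3 and 92.5 in bean 5 mm, against 498 and 500.0 in pod elongation (5.12-fold lower). With scaling to the hybridization controls 4 aquaporins were higher and 5 lower.

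Of 10 heat shock factors 1 was called. HSF-01 rose on its brighter probe set, at 1784 and 1906 in bean 5 mm, against 763 and 727 in pod elongation (adjusted p = 4.68e-05), while its other probe set fell, and the mean over both gave a log2 difference of 0.10, beside 1.29. Of 11 heat shock proteins and chaperones 3 rose and 3 fell. HSP90A1 was at 168 and 140.2 in bean 5 mm, against 852 and 625 in pod elongation (4.39-fold lower). The number higher was 5 without either or both of the fully grown arrays. Cyclophilins, which help proteins fold, were higher for 5 of 12 and lower for 1, with CYP21 at 445 and 451 in bean 5 mm, against 173 and 170.3 in pod elongation (2.47-fold higher) and CYP53 2.095-fold lower. Their count higher was 1 after scaling to the hybridization controls, with deposited intensities, and without bean 5 mm replicate 1 or pod elongation replicate 1, and 2 without bean 5 mm replicate 2 or pod elongation replicate 2. CYP26 was the least secure of them (adjusted p = 0.0499).

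Sieve element occlusion proteins, which plug phloem tubes, fell for 3 of 8, SEOS most, at 1.44 and 3.37 in bean 5 mm, against 167 and 186 in pod elongation (at least 27.7-fold lower, adjusted p = 3.83e-06). Of the 5 calmodulins, calcium sensors, SCAM-4 and SCAM-5 were lower in beans, at 31.5 and 17.3 in bean 5 mm, against 134 and 175 in pod elongation (4.26-fold lower) and at 3.18 and 2.74 in bean 5 mm, against 32.1 and 55.3 in pod elongation (at least 6.62-fold lower). SCAM-3 was called higher (adjusted p = 0.0285), a call lost after scaling to the hybridization controls, with deposited intensities and without any 1 of the 4 arrays compared. The probe sets of SCAM-3 and SCAM-4 can match several transcripts. Of 5 nodulins N-26 rose and NOD33 fell by 0.88 on the log2 scale (adjusted p = 0.0309), a call lost without bean 5 mm replicate 2 or pod elongation replicate 2 (adjusted p = 0.203 and 0.219).

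Some genes were brighter on bean 5 mm replicate 1. ITPK3, an inositol phosphate kinase, was at 424 and 182 in bean 5 mm, against 752 and 861 in pod elongation (2.78-fold lower), with a log2 difference of -1.47, or -0.90 without bean 5 mm replicate 2. Of the 23394 pathogen probe sets, 1 was at least 4-fold higher in beans and 2 in pods with a signal over the soybean median.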
